A study of Mus musculus with 142 samples.

Results

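The antigen receptor loci Igh (immunoglobulin heavy chain), Igk (immunoglobulin kappa light chain) and Tcra/Tcrd (T cell receptor alpha, with delta nested inside it) were followed here in mouse embryonic stem cells (mESCs). Their windows were chosen by position alone. All 50 kb windows within 113.2 to 116 Mb of chromosome 12, 67.5 to 70.8 Mb of chromosome 6 and 52.4 to 54.3 Mb of chromosome 14 (mm10) were taken, which gave 56 windows for Igh, 66 for Igk and 38 for Tcra/Tcrd, or 160 of 49264 autosomal windows. The study measured replication timing (RT) by allele-specific E/L Repli-seq. After a BrdU pulse of 2 h, cells from the early and from the late part of S phase were sorted apart and their labelled DNA was sequenced. Each window has a log2 ratio of early to late signal, log2(E/L), for each homolog. A positive value means early replication and a negative value late replication.

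The cells were clones of F121-9, a CAST EiJ-129SvImJ hybrid mESC line grown in 2i and LIF. Each pair of homologs holds a castaneus chromosome, called CAST here, and a chromosome of the other strain, called musculus here. Values were present for 66 libraries of 53 clones in 26 lines. Every clone carried CRISPR deletions at the Dppa2/4 domain of chromosome 16, in most clones on the musculus homolog alone, so the 3 loci lay in trans to the edits and no unedited parent was among the profiles. In 2 clones the deletion was on CAST alone, and in 8 others the profiles name a deletion on CAST as well. The deleted sites were the whole elements A, B or C, Oct4/Sox2/Nanog binding sites within them (AOSN, BOSN1, BOSN12, COSN1, COSN12, COSN123), transcription start sites (ATSS, BTSS, CTSS), a further site Z, and segments of C (CL20k, CR11.8k, CR13.4k, CR14.6k, COSN1.2.8k). The lines were COSN1, COSN12, COSN123, COSN1.2.8k, CL20k, CR11.8k, CR13.4k, CR14.6k, CTSS, BTSS, BTSS.CTSS, ATSS.BTSS.CTSS, A.COSN12, A.COSN123, AOSN.COSN12, AOSN.COSN123, BOSN1.COSN123, BOSN12.COSN123, A.B.COSN123, A.BOSN1.COSN123, A.BOSN12.COSN123, A.BOSN12.BTSS.COSN123, AOSN.B.COSN123, AOSN.BOSN12.COSN123, Z.AOSN.COSN123 and Z.B.C. Each held 1 to 5 clones. COSN123 was a single clone, and lines that carry COSN123 with further deletions were built on it, so those clones share a founder. According to the paper, COSN12 and COSN123 were made from COSN1 cells, and BTSS.CTSS from CTSS cells. Shared ancestry is thus not limited to the lines with COSN123. Cultures of 1 clone were averaged, so n counts clones, and p-values measure the spread between these clones of 1 hybrid line. Strain and parent of origin cannot be told apart in it. The 2 Z.B.C clones had no CAST values on chromosome 14, which left 51 clones for that homolog of Tcra/Tcrd. Repli-seq gives no expression values by which the cell type could be checked.

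Antigen receptor genes are assembled in lymphocytes. The RAG recombinase joins a variable (V), in some loci a diversity (D), and a joining (J) segment at recombination signals, which consist of a conserved heptamer, a spacer and a nonamer. V segments form long arrays, and the constant (C) exons lie at the other end of the locus beside the J segments. In embryonic stem cells the loci are in their germline order, so timing can be read from the constant end through the V array.

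The annotation placed 114 V genes and 80 V pseudogenes in the Igh windows, with 19 D genes, 4 J genes and 8 C genes. Igk held 102 V genes, 74 V pseudogenes, 5 J genes and 1 C gene. Tcra/Tcrd held 115 V genes, 21 V pseudogenes, 2 D genes, 53 J genes and 2 C genes. V segments pointed 1 way in Igh, with 192 on the minus and 2 on the plus strand, and in Tcra/Tcrd, with 1 on the minus and 135 on the plus strand. In Igk they were mixed, with 94 on the minus and 82 on the plus strand.

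Recombination signals are shown for V genes of the windows on which the comparisons of homologs turn and for Trav1, the V gene farthest from the constant end of Tcra/Tcrd. They were read from GRCm38.p6 (the C57BL/6J reference, not the musculus or CAST sequence of these cells) on the strand of the gene, 5′ to 3′, with the heptamer and the 9 bases at the nonamer's distance in capitals.
Ighv1-47, chr12:114991069-114991107, minus strand: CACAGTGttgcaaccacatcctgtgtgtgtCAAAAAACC
Ighv1-84, chr12:115980663-115980701, minus strand: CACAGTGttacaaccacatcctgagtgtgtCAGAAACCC
Igkv6-32, chr6:70073996-70074023, minus strand: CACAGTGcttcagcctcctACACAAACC
Igkv3-12, chr6:70518850-70518877, plus strand: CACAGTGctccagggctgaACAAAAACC
Trav7d-4, chr14:52770393-52770431, plus strand: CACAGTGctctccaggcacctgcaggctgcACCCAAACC
Trav1, chr14:52428877-52428915, plus strand: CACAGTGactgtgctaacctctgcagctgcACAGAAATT
The spacer was set at 23 bases for the Igh and Tcra/Tcrd signals and at 12 bases for the Igk signals. Its length was not measured, and nonamers at other distances were not searched for. The heptamer CACAGTG was found within 20 bases downstream of 81 of 114 Igh V genes (71.1%), 86 of 102 Igk V genes (84.3%) and 96 of 115 Tcra/Tcrd V genes (83.5%). A nonamer with at most 2 mismatches to ACAAAAACC stood at the spacer distance in 25, 84 and 66 of them. The bases printed for Ighv1-84, with 4 mismatches, and Trav1, with 3, are outside that limit.

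Immunoglobulin V promoters carry the octamer, the site of the transcription factors Oct1 and Oct2. These stretches show it in capitals, on the strand of the gene.
Ighv1-47, chr12:114991578-114991657, minus strand: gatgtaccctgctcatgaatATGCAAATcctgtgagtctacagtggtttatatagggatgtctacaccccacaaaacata
Ighv1-84, chr12:115981182-115981261, minus strand: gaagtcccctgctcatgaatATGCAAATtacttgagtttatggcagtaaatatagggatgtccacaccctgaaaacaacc
Igkv3-12, chr6:70518138-70518217, plus strand: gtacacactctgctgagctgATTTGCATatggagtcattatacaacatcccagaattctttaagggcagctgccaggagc
Igkv3-1, chr6:70703466-70703545, plus strand: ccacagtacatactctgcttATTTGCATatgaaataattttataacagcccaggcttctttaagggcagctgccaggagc
ATTTGCAT or its reverse complement ATGCAAAT was searched from 250 bases before to 50 after each annotated V start. It was present at 90 of 114 Igh V genes (78.9%) and 74 of 102 Igk V genes (72.5%), against 570 of 32851 RefSeq promoters of the same length (1.74%). Among V pseudogenes it was present at 38 of 80 (47.5%) in Igh and 23 of 74 (31.1%) in Igk. All 128 Igh promoters with an octamer read ATGCAAAT on the gene's strand and all 97 Igk promoters read ATTTGCAT, so the orientation was opposite in the 2 loci. These letters were in the window of 0 of 115 Tcra/Tcrd V genes.

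Both immunoglobulin loci ran from early replication at the constant end to late replication in the V array, whereas Tcra/Tcrd was early along most of its length. Averaged over the windows of each locus, the musculus homolog stood at -0.59 ± 0.20 in Igh, -0.75 ± 0.15 in Igk and 0.43 ± 0.09 in Tcra/Tcrd (SD, n = 53), in log2(E/L). On the CAST homolog these means were -0.59 ± 0.17 in Igh, -0.87 ± 0.17 in Igk (SD, n = 53) and 0.69 ± 0.09 in Tcra/Tcrd (SD, n = 51). Over the autosomes the median window stood at -0.07, the lower and upper quartiles were -1.05 and 0.99. Of the windows with values in at least 20 clones, the musculus mean was above 0 in 5 of 41 in Igh, 5 of 63 in Igk and 28 of 31 in Tcra/Tcrd, and the CAST mean in 5 of 39, 4 of 60 and 30 of 30. The profiles of the homologs followed each other along the windows, with r = 0.91 in Igh, 0.82 in Igk and 0.98 in Tcra/Tcrd (a description, since the smoothing makes neighbouring windows share data).

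The fall from constant end to V array was tested as the mean of the constant windows minus the mean of the distal V part, the windows of the V array farther from the constant end. It was 1.54 ± 0.23 in Igh (SD, n = 53), 1.38 ± 0.20 in Igk (SD, n = 53) and 0.94 ± 0.17 in Tcra/Tcrd (SD, n = 51), averaged over the homologs. It was above 0 in 53 of 53, 53 of 53 and 51 of 51 clones (sign-flip permutation test over clones, two-sided, adjusted p = 1.07e-05 for each over 15 tests, the smallest that 100000 resamples and this adjustment gave). The falls were 1.36, 1.05 and 0.78 when only windows with both homologs in every clone were used. The distal V part then held 2 of 24, 8 of 30 and 4 of 16 windows.

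The constant end of Igh fell in timing gene by gene towards the D and J segments. The window with Igha, Ighe and Ighg2c, which encode the constant regions of IgA, IgE and IgG2c, stood at 1.09 ± 0.17 on musculus and 1.09 ± 0.13 on CAST (SD, n = 53). The next window, with Ighg2b and Ighg1, stood at 0.83 and 0.85, and that of Ighg3 at 0.46 and 0.51. Ighm and Ighd, the first constant genes used by a B cell, lay at 0.09 ± 0.22 and 0.13 ± 0.19 (SD, n = 53). The homologs differed by at most 0.05 across these windows.

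Beyond Ighm the values became negative. Adam6b and Adam6a, genes expressed in testis that lie between the D and V segments, stood at -0.28 and -0.59 on musculus and at -0.26 and -0.57 on CAST. The window of Ighv5-1, the V segment nearest the constant end, had -0.84 ± 0.27 (SD, n = 52) on musculus and -0.75 ± 0.30 (SD, n = 53) on CAST. The descent was not even. At 704 kb from Ighm the profile came back to -0.04 ± 0.35 on musculus and -0.24 ± 0.27 on CAST (SD, n = 53), and at 1204 kb it reached -1.36 ± 0.27 (SD, n = 42) and -1.26 ± 0.22 (SD, n = 34). In that late window 13.1% of tested autosomal windows were as late or later. The distal V part averaged -0.94 ± 0.25 on musculus and -0.87 ± 0.25 on CAST (SD, n = 53).

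**Figure D1:**
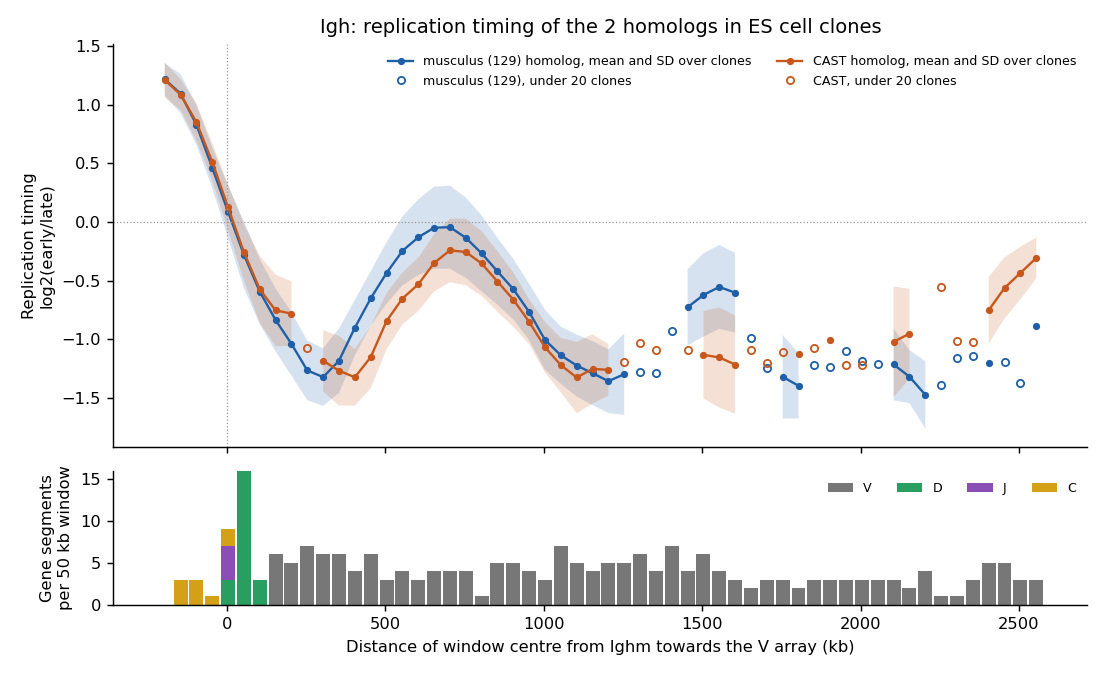
Replication timing, log2(E/L), of the musculus and CAST homologs along Igh against the distance from Ighm in kb (lines, means over clones with SD bands; open circles, under 20 clones), with the V, D, J and C segments per window as bars below. The profile falls from 1.22 at the constant end to below -1 in the V array, with a return towards 0 at 704 kb.

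Igk was early at its constant end and late through most of its V array. The window of Igkc, the kappa constant gene, and Igkv3-1 stood at 0.36 ± 0.16 on musculus and 0.51 ± 0.21 on CAST (SD, n = 53). Rpia, an enzyme gene of the pentose phosphate pathway on the other side of Igkc, lay at 0.61 and 0.75. The latest window, 2302 kb from Igkc, had -1.44 ± 0.25 (SD, n = 43) and -1.42 ± 0.23 (SD, n = 42), and 4.83% of tested autosomal windows were as late or later. Past it the timing rose again, so that the V gene farthest from Igkc stood at 0.13 ± 0.20 on musculus and -0.17 ± 0.28 on CAST (SD, n = 53).

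**Figure D2:**
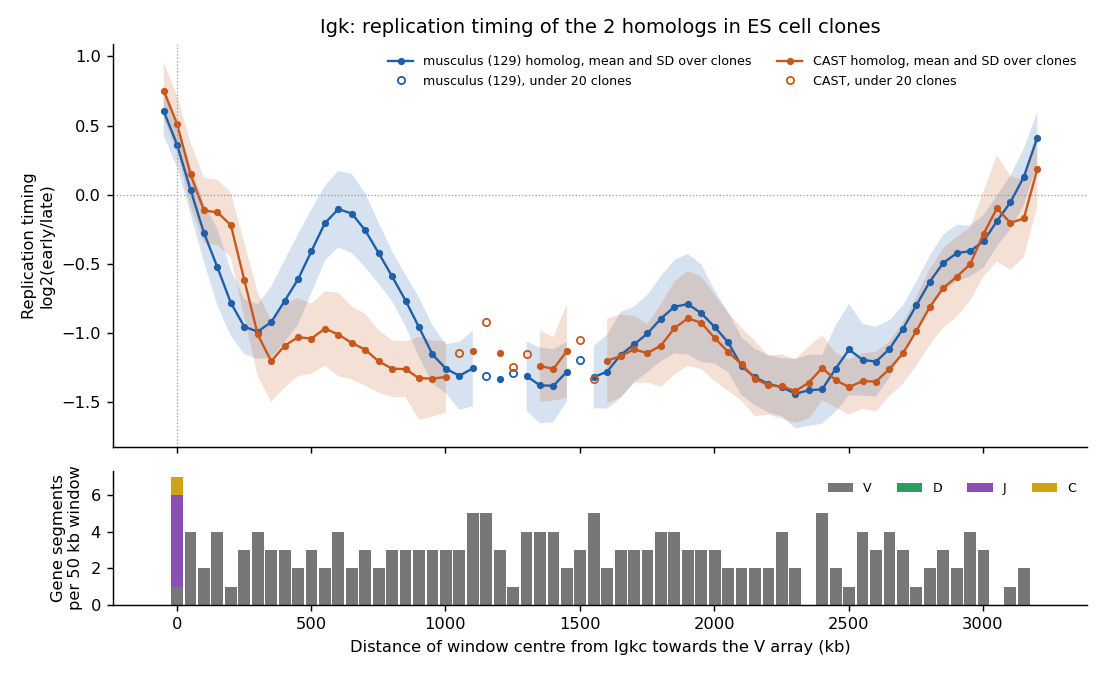
Replication timing of the musculus and CAST homologs along Igk against the distance from Igkc in kb, drawn as for Igh. Both ends are early, most of the V array is late, and the homologs part around 652 kb, where musculus has a mean of -0.14 and CAST of -1.07.

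In Tcra/Tcrd both ends were early and the trough between them was shallow. Trac, the alpha constant gene, and the J segments beside it lay in a window at 1.33 on musculus and 1.41 on CAST, and 99.0% of tested autosomal windows were as late or later. Trdc, the delta constant gene, and Trdv5 stood at 1.13 ± 0.14 (SD, n = 53) and 1.22 ± 0.15 (SD, n = 51). Dad1, a subunit of the oligosaccharyltransferase, and Abhd4, a lipid hydrolase, are the neighbours of Trac and lay at 1.33 on musculus and at 1.39 and 1.37 on CAST. Trav1 at the far end of the V array was almost as early, with 1.10 ± 0.19 (SD, n = 53) and 1.11 ± 0.17 (SD, n = 51). The lowest window, with Trav7-1, Trav6-2 and Trav7d-2, had -0.09 ± 0.22 (SD, n = 53) on musculus and 0.29 ± 0.19 (SD, n = 51) on CAST. The late end of the fall in this locus was thus the interior of the array, not its far edge.

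**Figure D3:**
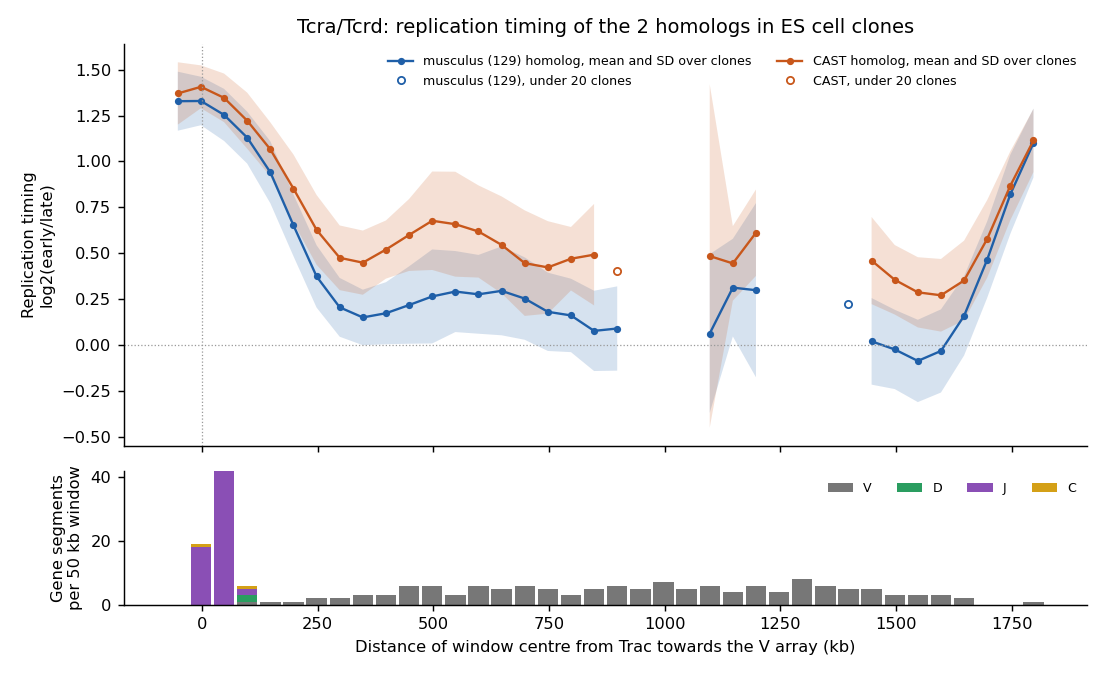
Replication timing of the musculus and CAST homologs along Tcra/Tcrd against the distance from Trac in kb, drawn as for Igh. Both ends lie above 1, and CAST lies above musculus through the V array while the homologs meet at Trav1 (1.10 and 1.11).

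The sign of the difference between homologs was not the same in the 3 loci. Over windows with both homologs, musculus minus CAST was 0.08 ± 0.10 in Igh (SD, n = 53, higher on musculus in 40 of 53 clones), 0.14 ± 0.08 in Igk (SD, n = 53, 51 of 53 clones) and -0.24 ± 0.08 in Tcra/Tcrd (SD, n = 51, higher on CAST in 51 of 51 clones). Each passed the sign-flip permutation test over clones (adjusted p = 1.07e-05). The Igk value fell to 0.08 when only the 16 windows with both homologs in every clone were used. For comparison, the median size of the difference was 0.09 over tested autosomal windows, 0.12 in Igh, 0.15 in Igk and 0.26 in Tcra/Tcrd.

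Window by window, a difference was called when limma's adjusted p was under 0.05 and the homologs differed by at least 0.5. Of the 36 Igh windows that could be tested, 3 (8.33%) were called earlier on musculus, and of the 58 Igk windows 7 (12.1%), against 2.42% of 45181 tested autosomal windows. Earlier on CAST were 1 of 36 Igh windows (2.78%) and 1 of 58 Igk windows (1.72%), against 3.01% of autosomal windows. Neighbouring windows are smoothed together, so a run of called windows is not a set of separate results. Of the 30 Tcra/Tcrd windows tested, 0 were called. Without the size limit, 28 of the 30 passed and all 28 were earlier on CAST, against 33.1% of autosomal windows. Earlier on musculus were 16 of 36 Igh and 29 of 58 Igk windows without the limit, against 27% of autosomal windows, and earlier on CAST 8 and 9. With a limit of 0.25, in either direction, 13 of 36 Igh, 15 of 58 Igk and 16 of 30 Tcra/Tcrd windows were called, against 19.3% of autosomal windows.

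The run of 7 Igk windows, chr6:69900001-70250000, held 19 V segments (genes and pseudogenes counted together), 17 of them on the minus strand, and 4 with an octamer. Over all of Igk, 94 V segments were on the minus and 82 on the plus strand. An octamer was present at 74 of 102 V genes and 23 of 74 V pseudogenes of the locus. Its window means ran from -0.59 to -0.10 on musculus and from -1.26 to -0.97 on CAST, and the differences from 0.64 to 0.95. The window of Igkv7-33 and Igkv6-32, whose recombination signal is printed above, had the highest difference. Its musculus values had a lowest of -0.80, a median of -0.14 and a highest of 0.40, and its CAST values -1.72, -1.06 and -0.65. The 2 sets overlapped at their edges, yet musculus was earlier within each of the 50 clones with both values. The difference was 0.95 ± 0.26 (SD, n = 50, limma adjusted p = 2.69e-32).

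Nearer to Igkc the sign turned. The window of Igkv3-12, 202 kb from Igkc, had musculus values with a lowest of -1.42, a median of -0.75 and a highest of -0.23. Its CAST values were -0.67, -0.19 and 0.21. CAST was earlier in 52 of 52 clones, by a difference of -0.56 ± 0.26 (SD, n = 52, limma adjusted p = 1.75e-22). At the Igkc window itself the difference was -0.15 (limma adjusted p = 1.33e-09). The constant-to-distal fall in Igk was accordingly steeper on CAST, at 1.5 ± 0.22 against 1.27 ± 0.20 on musculus (SD, n = 53), in 50 of 53 clones (sign-flip permutation, adjusted p = 1.07e-05). On the 1 Mb beyond the far end of the V array the difference was -0.15 ± 0.10 (SD, n = 53), with CAST earlier in 48 of 53 clones. On the 1 Mb beyond Igkc it was 0.03 ± 0.08 (SD, n = 53), with musculus earlier in 35 of 53 clones.

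In Igh, musculus was earlier in 2 stretches and CAST at the distal end. The stretch at chr12:114950001-115050000 held 7 V segments, and its window of Ighv1-44 to Ighv1-47 had the highest difference of the locus. The musculus values there ran from -1.58 through a median of -0.55 to 0.21, and the CAST values from -3.04 through -1.08 to 0.07. The difference was 0.60 ± 0.46 (SD, n = 53), musculus was earlier in 51 of 53 clones (limma adjusted p = 8.95e-14), and the lowest CAST value stood far from the next. The other stretch on musculus was chr12:113850001-113900000, with a difference of 0.51, close to the limit.

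At the far end, the window of Ighv1-82, Ighv1-83 and Ighv1-84 ran from -1.48 through -0.87 to -0.51 on musculus and from -0.65 through -0.34 to 0.06 on CAST. CAST was earlier in 53 of 53 clones, with a difference of -0.58 ± 0.18 (SD, n = 53, limma adjusted p = 3.60e-30). CAST stayed earlier past the locus. Over the adjoining 1 Mb the means were -0.07 on musculus and 0.22 on CAST, a difference of -0.30 ± 0.07 (SD, n = 53), with CAST earlier in 53 of 53 clones, and Zfp386, a zinc finger gene, lay at -0.58 and -0.05. On the 1 Mb beyond the constant end of Igh the difference was -0.16 ± 0.09 (SD, n = 53), with CAST earlier in 49 of 53 clones. No difference between homologs in the constant-to-distal fall was detected (0.04 ± 0.27, SD, n = 53, sign-flip permutation, adjusted p = 0.307). Without Z.B.C clone A6, whose value was -1.28, the mean was 0.07 (sign-flip permutation, adjusted p = 0.0253), and with only the windows complete in every clone it was -0.04.

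In Tcra/Tcrd the difference grew from the ends of the locus into the V array. It was -0.01 at Trav1, -0.09 at Trdc and at its most negative in the window with Trav6d-4, Trav7d-4 and Trav8d-1. The musculus values of that window had a lowest of -0.46, a median of 0.05 and a highest of 0.43, and the CAST values -0.25, 0.47 and 1.00. CAST was earlier in 48 of 50 clones, with a difference of -0.44 ± 0.27 (SD, n = 50, limma adjusted p = 2.23e-16), and the 2 sets overlapped widely. The fall from constant end to distal V part was larger on musculus, at 1.04 ± 0.20 (SD, n = 53), than on CAST, at 0.84 ± 0.19 (SD, n = 51), in 44 of 51 clones (sign-flip permutation, adjusted p = 1.07e-05). The homologs' falls differed by 0.20, and by 0.13 when only windows with both homologs in every clone were used. On the adjoining 1 Mb beyond Trac the homologs were level, with 1.27 on each. On the 1 Mb beyond Trav1 the difference was 0.04 ± 0.09 (SD, n = 51), with musculus earlier in 34 of 51 clones.

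**Figure D4:**
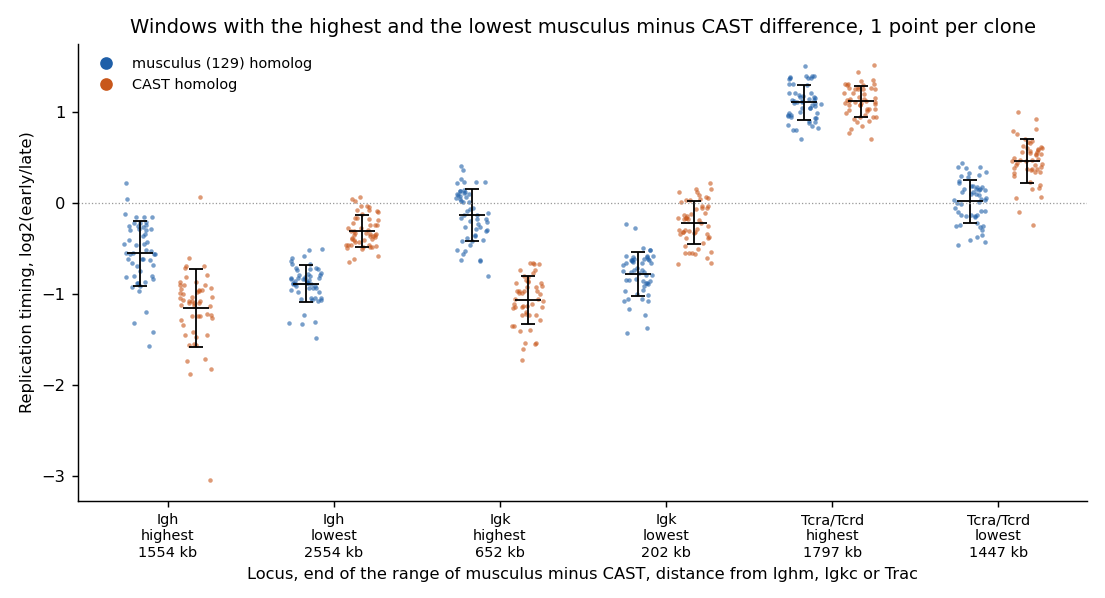
Replication timing, log2(E/L), of each clone on the musculus and CAST homologs in the window with the highest and the lowest musculus minus CAST difference of each locus (points, clones; bars, mean and SD). The Igk window at 652 kb has musculus above CAST (0.95) and that at 202 kb has CAST above musculus (-0.56), while the highest Tcra/Tcrd window shows no separation (-0.01).

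The other antigen receptor loci give a scale for these differences. Igl, the lambda light chain locus, had 5 windows at 0.34 ± 0.17 (SD, n = 53) on musculus and -1.06 ± 0.19 (SD, n = 52) on CAST, and 5 of 5 were called earlier on musculus. Its difference of 1.42 ± 0.21 (SD, n = 52) was larger than that of any Igh, Igk or Tcra/Tcrd window tested, with musculus earlier in 52 of 52 clones. However, Igl lies on chromosome 16, the chromosome of the deletions, and their part in its difference was not tested. Tcrb stood at -1.13 on musculus and -0.97 on CAST, later than Igk. Tcrg stood at 0.17 and 0.29, between Tcra/Tcrd and Igh. No Tcrb or Tcrg window was called.

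The V arrays were incompletely measured. A window had a value in 70.6% of clone and window pairs on musculus and 66.7% on CAST in Igh, against 85.1% and 85% over chromosome 12. In Igk it was 87.1% and 81.6%, against 89.4% and 89.2% over chromosome 6. In Tcra/Tcrd it was 75.1% and 70.8%, against 81.9% and 82.2% over chromosome 14. Values in every clone existed for 22 Igh windows on musculus and 21 on CAST, for 32 and 18 in Igk, and for 19 and 17 in Tcra/Tcrd. No clone had a value on either homolog in 6 Tcra/Tcrd windows, all inside the Trav array.

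Windows with too few values for the test had higher median shares of repeated sequence. The share of 50-mers of the reference that occur more than once within the locus had a median of 11.3% in the tested and 27.3% in the 20 untested windows of Igh. In Igk the medians were 16.5% and 31.6% over 58 and 8 windows. In Tcra/Tcrd they were 21.8% and 97.2% over 30 and 8 windows, and the 6 windows with no value at all had 97.1% to 98.1%. These windows lay among the duplicated Trav genes whose names carry a d or an n, others of which lay in windows with values. In the tested window with the most negative musculus minus CAST difference, this share was 30.0% in Igh, 34.1% in Igk and 42.6% in Tcra/Tcrd. In the window with the highest difference it was 2.01%, 10.8% and 4.14%. The part of repeats, of strain differences in copy number and of SNP density in the missing values and in these differences was not tested.

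**Figure D5:**
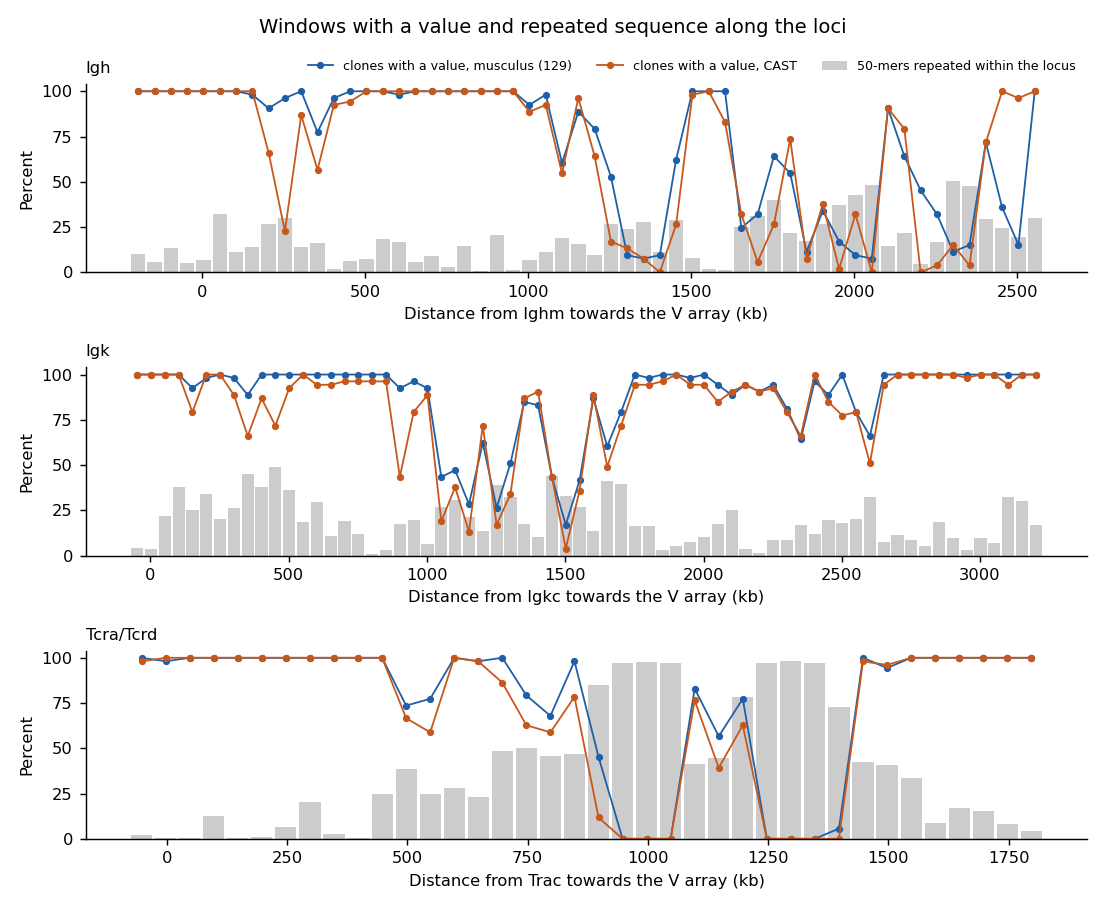
Percent of clones with a value on each homolog (lines) and percent of reference 50-mers that are repeated within the locus (bars) per window, against the distance from Ighm, Igkc or Trac in kb. In Tcra/Tcrd both lines reach 0 over the bars near 97%, whereas the Igh lines drop over much of the distal array with bars of at most 50.3%.

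The median GC content of the windows was 39.4% in Igh, 38.9% in Igk and 41.1% in Tcra/Tcrd. Across tested windows, GC content and mean timing had r = 0.80 and rho = 0.40 in Igh, r = 0.64 and rho = 0.48 in Igk, and r = 0.76 and rho = 0.63 in Tcra/Tcrd, as a description over 36, 58 and 30 neighbouring windows. With the number of V segments in the window the r was -0.68, -0.39 and -0.65.

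The clones differed more in Igh and Igk than over all tested autosomal windows. Those windows were not matched to the loci in timing or in share of values. The median SD between clones of a window was 0.27 on musculus and 0.26 on CAST in Igh, 0.24 and 0.26 in Igk, and 0.21 and 0.19 in Tcra/Tcrd, against 0.20 and 0.21 over tested autosomal windows. Between cultures of the same clone, from 11 clones, the median SD was 0.19 and 0.20 in Igh, 0.18 and 0.19 in Igk, 0.17 and 0.16 in Tcra/Tcrd, and 0.16 on each homolog over the genome. The mean of the homologs over a locus ran from -1.0 to -0.18 between clones in Igh, from -1.21 to -0.45 in Igk and from 0.37 to 0.77 in Tcra/Tcrd. Each of these means was taken over the windows with both homologs in that clone, so clones were not compared over the same windows.

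Clones in which Igh was late also had a late Igk, although the loci lie on different chromosomes. Across 53 clones the locus means had r = 0.91 and rho = 0.92 (permutation test, adjusted p = 2e-05 for each over 6 relations), and r was 0.89 without the 2 farthest clones and 0.90 over 26 line means. With only the windows present in every clone it was 0.68. The relation of Tcra/Tcrd did not pass the test with Igh (r = 0.19, rho = 0.25, permutation adjusted p = 0.225 and 0.0968) or with Igk (r = 0.15, rho = 0.16, permutation adjusted p = 0.301 and 0.272) over 51 clones. The homologs of 1 locus moved together, with r = 0.88 in Igh, 0.90 in Igk and 0.50 in Tcra/Tcrd (rho = 0.86, 0.85 and 0.52, permutation adjusted p = 2e-05, 2e-05 and 0.00033 for r). The mean of each homolog was taken over the windows with a value on it in that clone. Here too, clones were not compared over the same windows.

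The level of other late DNA moved with these means. Over the other autosomal windows below the lower quartile of timing, 11260 windows, the clones ran from -1.44 to -1.06, and this level had r = 0.84 with Igh, 0.85 with Igk and 0.06 with Tcra/Tcrd (rho = 0.86, 0.87 and 0.11, permutation adjusted p = 1.5e-05, 1.5e-05 and 0.673 for r). The percent of windows with a value, 74.8% to 94.0% between clones, had r = -0.76 with Igh, -0.77 with Igk and 0.09 with Tcra/Tcrd (rho = -0.81, -0.80 and -0.04, permutation adjusted p = 1.5e-05, 1.5e-05 and 0.640 for r). These 6 relations were chosen after the data had been seen, and their part in the relation of Igh to Igk was not tested.

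Between lines, the timing of a window differed in 22 of 24 Igh windows (91.7%) and in 33 of 36 Igk windows (91.7%) by the moderated F test over 19 lines with at least 2 clones, against 74.4% of 30216 autosomal windows. With profiles centred on their autosomal median, 20 of 24 Igh and 28 of 36 Igk windows passed, against 76.9% of autosomal windows. With only lines of at least 3 clones, 21 of 29 and 34 of 45 passed, against 54.2%. The margin over the autosomes thus depended on the processing, most in Igk with centred profiles. Tcra/Tcrd could not be fitted with Z.B.C. Without that line 14 of 22 windows passed, against 74.1% of autosomal windows. Among lines with at least 2 clones, line means ran from -0.95 in ATSS.BTSS.CTSS (n = 3) to -0.29 in A.COSN12 (n = 2) in Igh, and the same lines were lowest and highest in Igk, at -1.20 and -0.58. In Tcra/Tcrd they ran from 0.47 in A.COSN123 (n = 4) to 0.72 in A.B.COSN123 (n = 2). The windows behind these means differed between clones. Line and preparation cannot be told apart. The difference between homologs did not differ between lines past the threshold, with permutation adjusted p = 0.0671 in Igh, 0.145 in Igk and 0.342 in Tcra/Tcrd, and musculus minus CAST was above 0 in 15 of 19 lines in Igh, 18 of 19 in Igk and 0 of 18 in Tcra/Tcrd.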

How the data were processed

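The authors trimmed reads with Trim Galore, aligned them with bowtie2 to an mm10 genome masked at SNPs, assigned them to homologs with SNPsplit, counted them in 50 kb windows and deposited log2 ratios of early to late signal, scaled, quantile-normalized and loess-smoothed (tool versions are not given in the sources used here). Counts were not used, so the depth behind each value is unknown and no counting interval can be given. Clone, line and homolog came from the labels, which name 71 libraries; 5 of these are not analysed here. All 138 value columns were used and 0 were left unused. Libraries of a clone were averaged. Differences between homologs were tested per window with limma 3.58.1 in R 4.3.3, over 45181 autosomal windows with both homologs in at least 20 clones, and per locus by sign-flip permutation with 100000 resamples, with Benjamini-Hochberg adjustment. Scripts were tested on simulated data. Genes are from GENCODE M21 and sequences from RefSeq GRCm38.p6. The members, lists and tests were chosen with earlier results of these data known. Windows were named by rule: per locus the earliest, the latest, those with the highest and lowest difference, the most variable, and those of constant, end V and neighbouring genes. A gene that this rule names is not reported here.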

Additional observations from a re-analysis of the deposited data

Results flagged for a closer look

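Of 27 sets of 4 to 10 clones or cultures examined, 2 held a value far from the others of its set, and chance gives about 1 in 20. Both were clones of AOSN.B.COSN123 (n = 5) at Tcra/Tcrd. In clone 5A.6 the musculus minus CAST difference was -0.0755, against -0.29 to -0.23 in the other clones of the line, so CAST was still earlier. In clone 5A.2 the constant-to-distal fall was 0.36 larger on musculus than on CAST, against -0.07 to 0.05 in the others.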

How the results depend on the processing

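All values here are in log2(E/L) unless they are counts. The locus means and falls kept their direction and their side of the threshold with libraries or lines as units, with medians, centred profiles, lines without COSN123 and first runs. Called windows, 4 of 36 tested in Igh and 8 of 58 in Igk, numbered 5 of 39 and 8 of 62 with lines as units (3 of the 4 Igh calls shared). They numbered 5 of 36 and 9 of 58 with centred profiles, and 6 of 38 and 8 of 62 without COSN123 lines. The fits by line and without COSN123 lines took windows with at least 10 lines or clones, against 20 clones in the main fit. The share called over all autosomal windows was not computed for the refits, so these counts cannot be set against the genome. With the 3 dated libraries the smallest possible permutation p is 0.25, so none could pass. Their musculus minus CAST differences were 0.022 in Igh, 0.18 in Igk and -0.23 in Tcra/Tcrd, the constant-to-distal falls 1.59, 1.49 and 0.96, and the falls' differences between homologs 0.17, -0.27 and 0.25. The undated libraries gave differences of 0.08, 0.13 and -0.24. Of 36, 58 and 30 windows tested, 13, 15 and 16 were called with a size limit of 0.25, and 24, 38 and 28 with none, against 4, 8 and 0. Differences between lines in Tcra/Tcrd, which could not be fitted with Z.B.C, were called in 14 of 22 windows without it and in 10 of 23 with lines of at least 3 clones, against 54.2% of all windows in the latter fit. Leaving out 1 clone or 1 line moved the difference of the Igh fall between 0.0197 and 0.0661, where the call was gained without Z.B.C clone A6 or without the line Z.B.C, and changed no other call of a locus mean or fall. Without 1 line, 3 to 5 Igh and 8 to 9 Igk windows were called. Leave-one-out ranges were 0.07 to 0.08 for the Igh difference, 0.13 to 0.14 for Igk and -0.24 to -0.23 for Tcra/Tcrd. Culture numbers did not pair the clones (13 of 55 pairs of clones correlated over 0.1, median 0.00). A replicate block was fitted on the 11 clones with cultures numbered 1 and 2. With it the differences were 0.07, 0.16 and -0.24 and the falls 1.44, 1.39 and 0.98. Called with the block were 6 of 30 Igh, 8 of 49 Igk and 0 of 22 Tcra/Tcrd windows, the same counts as without it. Missing windows limit the distal V part most: in Igh 2 of 24 windows there had both homologs in every clone.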
